A study of Mus musculus with 6 samples.

Results

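The SLC25 family holds the carriers that move metabolites across the inner mitochondrial membrane. Its members were taken as every gene of the deposited table whose symbol is Slc25a followed by a number and whose mean over the 6 libraries was at least 10 counts. This gave 39 of the 44 such symbols in the table, which lists 19162 genes. Slc25a47, with a mean of 19.2 counts, and Slc25a27, with 30.3, stood just inside that limit. Slc25a34 (3.00), Slc25a2 (1.5), Slc25a41 (0.667), Slc25a21 (0.667) and Slc25a18 (0.333) stood outside it and were not tested. Members whose official symbol is not of this form, such as the uncoupling proteins, are given separately.

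The cells came from the bone marrow of C57BL/6J mice and spent 4 days in culture, all of them with GM-CSF at 40 ng/mL, a growth factor of myeloid cells. The 3 control libraries (1, 2 and 4) had no further addition and the 3 KCl libraries (1, 2 and 4) had an additional 34.7 mM KCl. The series calls these cells myeloid-derived suppressor cells made from bone marrow, and asks what high potassium does to them. Library totals ran from 14118724 to 21694831 counts, of which the 39 carriers took 0.237% to 0.257%. These libraries include no control for the added osmolality, so potassium, chloride and osmolality cannot be told apart in any difference below.

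Carriers of this family are built from repeats of a pair of membrane helices, and most exchange one small molecule for another. They bring ADP and phosphate to the ATP synthase and send ATP out, pass the reducing power of NADH between compartments as malate and aspartate, export citrate for lipid synthesis, and import cofactors, amino acids, iron and glutathione. They are encoded in the nucleus and enter mitochondria through the TOM pore and the TIM22 complex. In myeloid cells they link mitochondrial metabolism to the synthesis of lipids, nucleotides and haem.

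Before the values, the libraries numbered 4 need a description. For 8231 genes with a mean of at least 300 counts, the average of control 4 and KCl 4, in CPM (counts relative to the library total), was divided by that of the other 4 libraries. Over these genes the SD of the log2 ratio was 0.00953, against 0.0439 for counting noise alone and 0.123 to 0.262 for the 14 other choices of 2 libraries. Among the 26 carriers that reached 300 counts it was 0.00672. The mean of these 2 libraries thus lay closer to that of the other 4 than counting noise gives, and p-values that use all 6 may be too small. The labels do not say whether replicates were separate mice or cultures, so the p-values reflect only how far these samples spread, which may be technical.

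With all 6 libraries, 3 carriers rose and 3 fell in KCl, and 33 did not pass the threshold of an adjusted p of 0.05 (edgeR quasi-likelihood test, Benjamini-Hochberg over 13326 genes). The 6 make up 15.4% of the family, where 22.9% of all tested genes passed, 12.4% higher and 10.5% lower. Those that rose were Slc25a23, a calcium-regulated carrier of ATP-Mg and phosphate, Slc25a37, the iron importer mitoferrin 1, and Slc25a33, a carrier of pyrimidine nucleotides. Slc25a4, the ADP/ATP translocase ANT1, Slc25a15, the ornithine carrier, and Slc25a35, whose substrate is unsettled, fell. No member changed by as much as 2-fold: log2 fold changes (KCl minus control) ran from -0.64 to 0.74 with a median of -0.008, beside a median of -0.005 for all tested genes. The median size of the change regardless of sign was 0.16, beside 0.17.

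Without both libraries numbered 4, 0 of the 39 passed by edgeR, and 62 of 13525 genes passed in all (0.458%). In that fit, 8 of the 39 had an unadjusted p under 0.05, beside 3998 of the 13325 genes also tested with all 6 libraries. All 6 carriers kept their direction in that fit, with edgeR adjusted p from 0.0708 to 0.17. Their groups did not overlap with all 6 libraries, so the direction was given beforehand and is no support. Of all tested genes, 12123 of 13325 kept their direction. Slc25a4, Slc25a23 and Slc25a37 passed when any 1 library was left out. Slc25a15, Slc25a33 and Slc25a35 did not, as given with each. The 3 KCl libraries lay wholly to one side of the 3 control libraries for 17 of 39 carriers (10 above, 7 below), or 43.6%. Of all tested genes 38.5% did so, 20.2% above and 18.4% below.

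**Figure D1:**
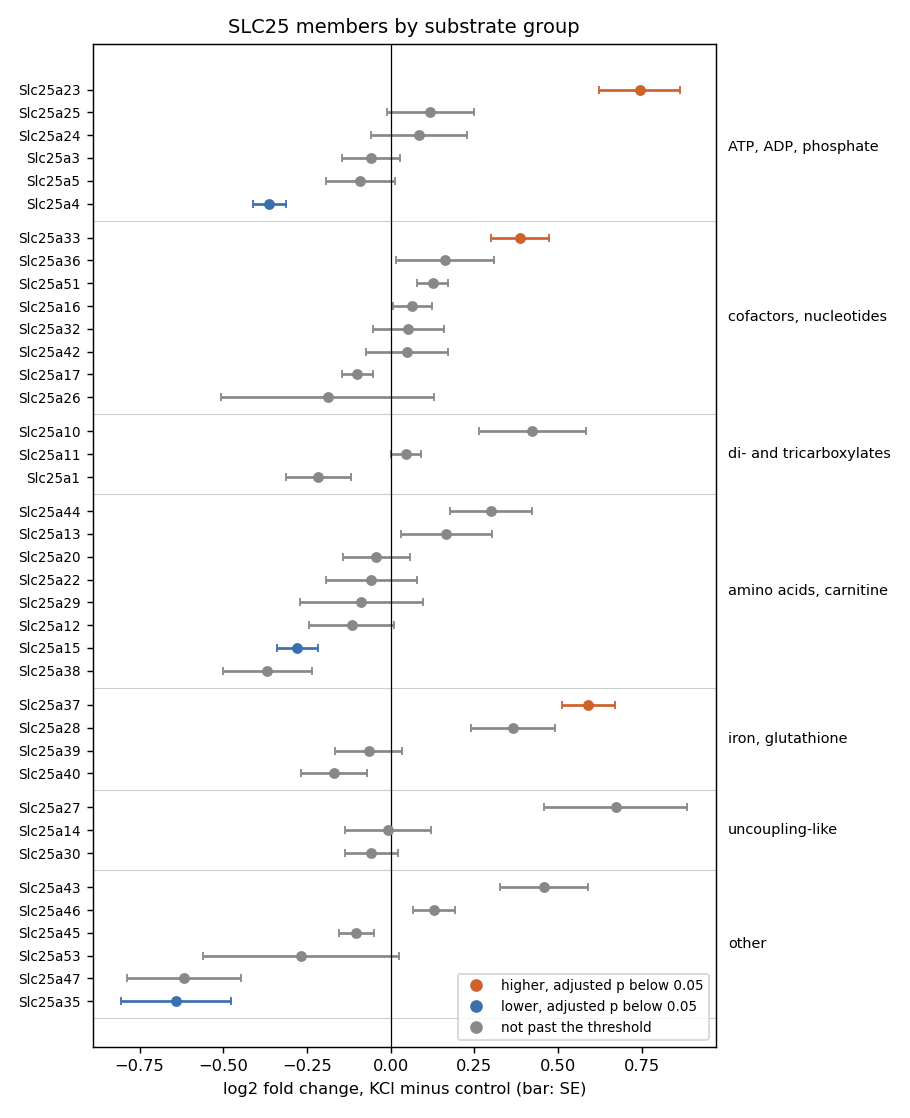
Log2 fold change (KCl minus control) of 38 of the SLC25 members, grouped by substrate; points are estimates from all 6 libraries and bars their standard errors. The 3 members higher and 3 lower at an adjusted p below 0.05 are coloured and fall in 5 of the 7 substrate groups, and the estimates shown lie between -0.64 and 0.74.

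Levels between genes were compared per length, on the deposited FPKM scale and as CPM per 1000 exonic bases of GENCODE M21. The lengths that the FPKM values imply were 0.373 to 2.86 times the exonic bases, and for 21 of the 39 members they differed by over 1.5 times, so the order of levels depends on the length used. Slc25a5, which encodes the ADP/ATP translocase ANT2, was the most abundant carrier on both scales, at 187 FPKM (32.3% of the family's sum) and 340 CPM per 1000 exonic bases (40.4%). Slc25a4 and the phosphate carrier Slc25a3 took the next places in an order that turned with the scale, at 52.9 and 49.2 FPKM but 61.0 and 74.5 CPM per 1000 exonic bases. Slc25a24, another ATP-Mg/phosphate carrier (34.8 FPKM), and the oxoglutarate carrier Slc25a11 (32.5 FPKM) were next by FPKM, and also changed places over exonic bases (37.6 and 53.8 CPM per 1000). The peroxisomal carrier Slc25a17 was at rank 6 by FPKM (26.8) and at rank 10 over exonic bases. Slc25a53 was the lowest on both scales, at 0.139 FPKM. By FPKM the members past the threshold lay at ranks 2 (Slc25a4), 15 (Slc25a37), 22 (Slc25a33), 24 (Slc25a15), 32 (Slc25a23) and 34 (Slc25a35) of the 39, and over exonic bases at ranks 3, 9, 22, 26, 32 and 35.

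**Figure D2:**
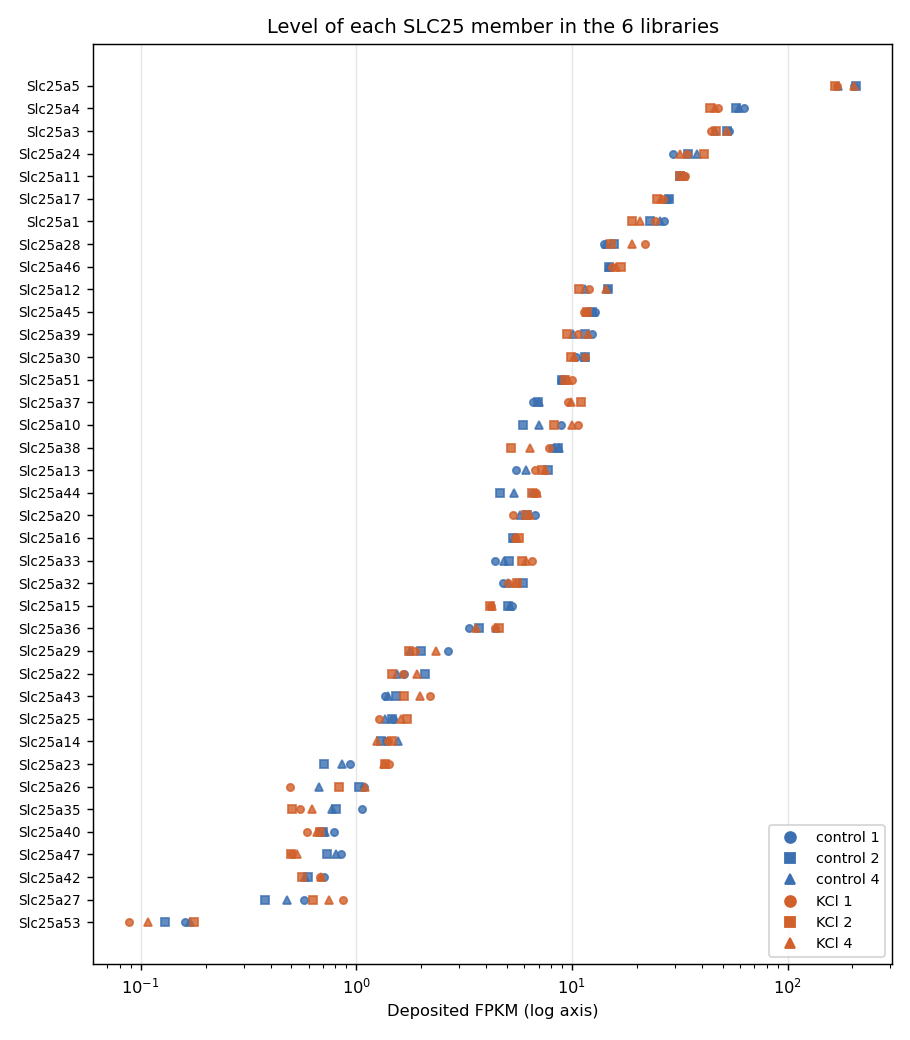
Deposited FPKM of 38 SLC25 members (log axis) in the 3 control (blue) and 3 KCl (orange) libraries, ordered by mean level. Slc25a5 stands at a mean of 187 FPKM and Slc25a53 at 0.139, and the groups differ by less than 2-fold for every member shown. The order rests on the lengths that FPKM implies.

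Of 6 measured carriers of ADP, ATP and phosphate, 1 rose, 1 fell and 4 did not pass. Slc25a4 (ENSMUSG00000031633) is a gene of chromosome 8 (mm10, bases 46206797 to 46211284, minus strand). Its level was 168, 156 and 160 CPM in control 1, 2 and 4 and 129, 123 and 125 CPM in KCl 1, 2 and 4. Every KCl library lay below every control library. ANT1 fell by 0.36 ± 0.05 on the log2 scale (SE, n = 3 per group; edgeR adjusted p = 0.00597), or 22.2% lower. Its difference was close to the same size in each numbering, at -0.38, -0.34 and -0.36 for KCl minus control in libraries 1, 2 and 4. Whether replicate numbers pair the samples is not known, and the mean of the libraries numbered 4 lay unusually close to that of the others. These differences are therefore not independent repeats.

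The more abundant translocase, Slc25a5, did not pass. It stood at 602, 618 and 511 CPM in control 1, 2 and 4 and at 505, 518 and 603 CPM in KCl 1, 2 and 4. Control 4 thus sat with KCl 1 and 2, and KCl 4 with control 1 and 2, and the log2 fold change was -0.09 ± 0.10 (edgeR adjusted p = 0.626). The phosphate carrier Slc25a3 showed the same layout, with 446, 435 and 385 CPM in the control libraries and 370, 408 and 438 CPM in the KCl libraries (log2 fold change -0.06 ± 0.09, adjusted p = 0.69). Reads of Slc25a5 may be shared with near copies, since GENCODE M21 lists 1 pseudogene named after it. These 2 genes carried most of the variation in the family's total, which was 2363 to 2541 CPM in control and 2378 to 2544 in KCl. Without them the other 37 carriers summed to 1467 to 1493 CPM in control and 1502 to 1531 in KCl, a small difference with no overlap. The means of these sums were 1478 and 1512 CPM. Slc25a37 alone, at means of 83.4 CPM in control and 126 in KCl, differed by more than the sums did.

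Slc25a23 showed the largest rise of the family. The gene (ENSMUSG00000046329) occupies bases 57043711 to 57059863 of chromosome 17, minus strand. Control 1, 2 and 4 had 6.86, 5.17 and 6.28 CPM, and KCl 1, 2 and 4 had 10.4, 10.4 and 9.85. The groups were well apart, with a log2 fold change of 0.74 ± 0.12 (edgeR adjusted p = 0.009), or 67.4% higher. Its close relatives did not pass: Slc25a24 had 108, 128 and 140 CPM without KCl and 125, 157 and 116 with it (log2 fold change 0.08 ± 0.14), and Slc25a25 rested at 0.12 ± 0.13. Slc25a24 was the most abundant of these 3 carriers, at 34.8 FPKM against 1.48 for Slc25a25 and 1.10 for Slc25a23, and over exonic bases the order was the same.

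**Figure D3:**
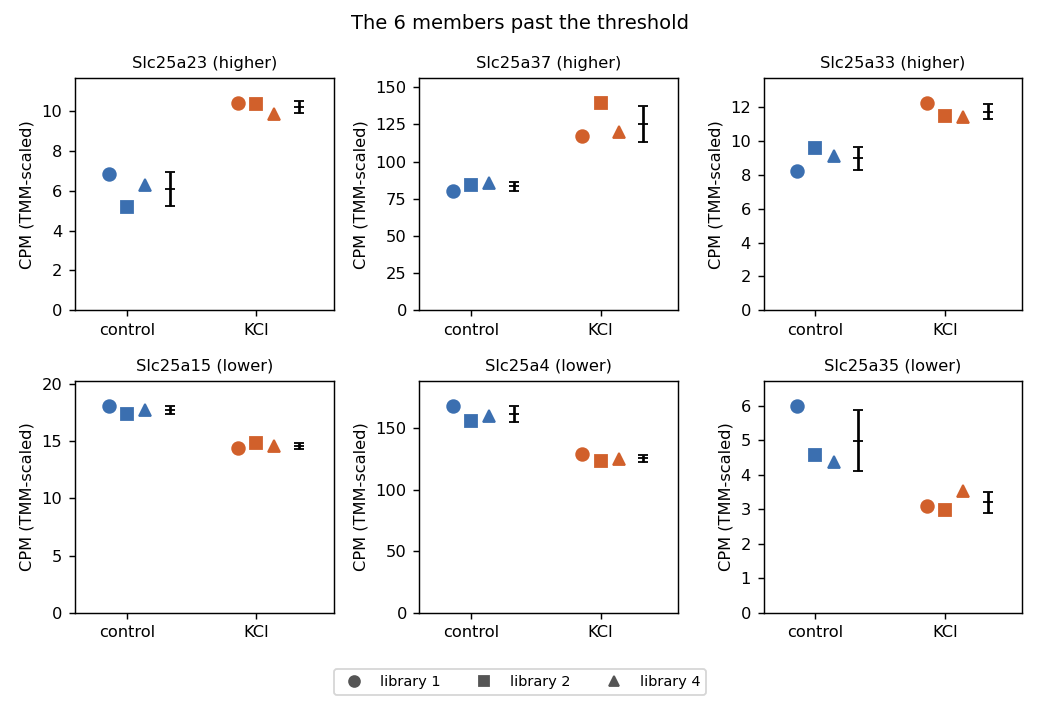
CPM (TMM-scaled, axis from 0) of the 6 SLC25 members past the threshold; each symbol is 1 library (circle 1, square 2, triangle 4), and the black bar is the group mean with its SD (n = 3). In each panel the 3 KCl libraries lie on one side of the 3 control libraries, with Slc25a35 showing the widest spread in control relative to its mean.

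In the iron and glutathione group, 1 of 4 rose and 3 did not pass. Slc25a37, mitoferrin 1, supplies iron for haem and iron-sulfur clusters and is best known from red cell precursors. The gene (ENSMUSG00000034248) occupies bases 69241848 to 69285112 of chromosome 14, minus strand. It had 80.1, 84.2 and 85.9 CPM in control 1, 2 and 4 and 117, 139 and 120 CPM in KCl 1, 2 and 4. The lowest KCl library was above the highest control library, and KCl 2 was the highest of all. The log2 fold change was 0.59 ± 0.08 (edgeR adjusted p = 0.00581), or 50.5% higher.

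The other mitoferrin, Slc25a28, was also higher in every KCl library than in any control library but did not pass. Its controls had 21.1, 23.5 and 21.7 CPM, against 33, 23.8 and 28.7 with KCl, for a log2 fold change of 0.37 ± 0.13 (adjusted p = 0.0916, and 0.0315 without KCl 2, which stood close to control). Which mitoferrin was more abundant depends on the length used: Slc25a28 had 16.7 FPKM against 8.53 for Slc25a37, but 6.75 against 17.4 CPM per 1000 exonic bases. The glutathione carriers Slc25a39 (log2 fold change -0.07 ± 0.10) and Slc25a40 (-0.17 ± 0.10) did not pass. Summed, the 4 genes stood at 181 to 190 CPM in control and 225 to 235 in KCl, most of that difference from Slc25a37.

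Erythroid markers were near 0 in all libraries. The 2 that could be tested did not pass. The 8 matched summed to 2.84 to 4.90 CPM in control and 4.08 to 4.43 in KCl, 6 of them had a mean under 1 CPM, and none was at 0 in every library. The summed level of 13 neutrophil and immature granulocyte markers was 15479 to 16564 CPM in control and 18403 to 24937 in KCl. Of these, 4 rose (Csf3r, Elane, Ngp and Ltf), or 30.8% beside 22.9% of all tested genes, and 9 did not pass, among them S100a8 (log2 fold change -0.05) and Prtn3 (-0.21). Of 11 monocyte and macrophage markers, 4 rose, among them C1qc, Ly6c2 and Csf1r, and 7 did not pass, such as Adgre1 (-0.13) and Ccr2 (-0.06), with sums of 1802 to 2200 CPM in control and 2553 to 2852 in KCl. Of 10 dendritic cell markers, 6 fell (Itgax, H2-Eb1, Dpp4, H2-Ab1, H2-Aa and Zbtb46) and 4 did not pass, with sums of 5545 to 7469 and 4132 to 5168 CPM. Of 13 eosinophil, basophil and mast cell markers, 6 fell, namely the eosinophil genes Ear1, Ear2, Ear6, Prg2 and Epx and the basophil protease Mcpt8. The other 7 did not pass, among them Ms4a2 (1.15), Cpa3 (0.07) and Fcer1a (-0.02), and the sums were 2643 to 2893 and 1234 to 1387 CPM. In KCl 2, Slc25a37, the neutrophil sum and the monocyte and macrophage sum were highest. The dendritic cell sum and the eosinophil, basophil and mast cell sum were lowest there. Without both libraries numbered 4, 0 neutrophil markers passed by edgeR (9 at an unadjusted p under 0.05), 1 monocyte and macrophage marker, 0 dendritic cell markers (4 at an unadjusted p under 0.05) and 4 eosinophil, basophil and mast cell markers. Of all tested genes, 3998 of 13325 had an unadjusted p under 0.05 in that fit. Lymphoid markers (1 of 5 tested rose; sums 10.3 to 13.6 CPM and 12.8 to 19.1) and stromal and megakaryocyte markers (1 of 8 rose; 176 to 237 and 196 to 214) were low or overlapped. The part of any of these in the carriers' values was not tested, and in bulk RNA fewer cells of a type and less RNA per cell cannot be told apart.

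Of 9 measured carriers of cofactors and nucleotides, 1 rose and 8 did not pass. Slc25a33 (ENSMUSG00000028982; chromosome 4, 149744036 to 149774277, minus strand) brings pyrimidine nucleotides to mitochondrial DNA and RNA synthesis. It had 8.24, 9.57 and 9.11 CPM in control 1, 2 and 4 and 12.2, 11.5 and 11.5 CPM in KCl 1, 2 and 4. All KCl libraries were above all control libraries, by 0.39 ± 0.09 on the log2 scale (edgeR adjusted p = 0.0233). The call was lost without control 1 (0.0598), control 4 (0.0868), KCl 1 (0.0755), KCl 2 (0.053) or KCl 4 (0.0797). DESeq2 gave an adjusted p of 0.0587. Its relative Slc25a36, a carrier of the same substrates, had 50.2, 56.0 and 67.3 CPM without KCl and 66.5, 73.1 and 54.3 with it, with control 4 and KCl 4 on the opposite sides from the rest.

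The NAD carrier Slc25a51 stood in a narrow band of 69.7 to 70.7 CPM in control and 75.1 to 78.7 in KCl, without overlap, but its log2 fold change of 0.13 ± 0.05 did not pass (adjusted p = 0.11). The S-adenosylmethionine carrier Slc25a26 (-0.19 ± 0.32) did not pass either. Slc25a26 spread most, from 4.24 to 6.76 CPM in control and from 3.10 to 6.92 in KCl. Slc25a16 (0.06 ± 0.06), tied to coenzyme A, Slc25a32 (0.05 ± 0.11), which carries folate and FAD, and the coenzyme A carrier Slc25a42 (0.05 ± 0.12) had small changes. The peroxisomal carrier Slc25a17 had 46.1, 46.6 and 46.0 CPM without KCl and 43.6, 42.7 and 43.0 with it. These groups did not overlap, yet the difference of -0.10 ± 0.05 did not pass (adjusted p = 0.193).

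None of 3 measured di- and tricarboxylate carriers passed by edgeR, DESeq2 or limma-voom, with 1 at an unadjusted p under 0.05 in each. That one was Slc25a10, the dicarboxylate carrier, which moves malate and succinate against phosphate. Its controls stood at 45.2, 30.2 and 36.1 CPM, and its KCl libraries at 54.7, 44.1 and 50.7, where control 1 reached above KCl 2 (log2 fold change 0.42 ± 0.16, adjusted p = 0.117, and 0.0442 without control 1). Slc25a1, the citrate exporter that feeds lipid synthesis, had 94.5 ± 7.23 CPM in control and 81.3 ± 8.72 in KCl (mean ± SD, n = 3; adjusted p = 0.178). Slc25a11, which swaps oxoglutarate for malate, had 116, 111 and 111 CPM without KCl and 117, 115 and 116 with it, an overlap in a tight range (0.05 ± 0.04).

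Among 8 carriers of amino acids and carnitine, 1 fell and 7 did not pass. Slc25a15 (ENSMUSG00000031482; chromosome 8, 22375551 to 22398597, minus strand) passes ornithine across the inner membrane. It had 18.1, 17.4 and 17.7 CPM in control 1, 2 and 4 and 14.4, 14.9 and 14.6 CPM in KCl 1, 2 and 4. Both groups were tight and did not overlap, and the gene fell by 0.28 ± 0.06 on the log2 scale (edgeR adjusted p = 0.021), or 17.6% lower. The call was lost on leaving out control 1 (0.0553), control 4 (0.0918), KCl 1 (0.0571) or KCl 4 (0.0972), and by DESeq2 (0.0801).

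Slc25a38, which imports glycine for haem synthesis, was lower without passing. Its controls had 30.6, 32.6 and 33.1 CPM and its KCl libraries 29.6, 20.7 and 24.1, so that KCl 1 lay next to control (log2 fold change -0.37 ± 0.13, adjusted p = 0.101, and 0.0325 without KCl 1). The branched-chain amino acid carrier Slc25a44 had 45.2, 32.2 and 37.5 CPM without KCl and 47.0, 47.1 and 47.5 with it (0.30 ± 0.12, adjusted p = 0.144, and 0.0312 without control 1). The aspartate-glutamate carriers of the malate-aspartate shuttle, Slc25a12 (-0.12 ± 0.13) and Slc25a13 (0.17 ± 0.14), did not pass. Nor did the carnitine-acylcarnitine carrier Slc25a20 (-0.04 ± 0.10), the glutamate carrier Slc25a22 (-0.06 ± 0.14) or the basic amino acid carrier Slc25a29 (-0.09 ± 0.18).

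The 3 members related to the uncoupling proteins did not pass by edgeR, DESeq2 or limma-voom, with 1 at an unadjusted p under 0.05 by edgeR and by limma-voom and 0 by DESeq2. Slc25a27 was scarce and higher in each KCl library, with 32, 22 and 18 counts in control 1, 2 and 4, against 44, 30 and 36 in KCl 1, 2 and 4, or 1.52, 1.01 and 1.27 CPM against 2.31, 1.75 and 1.99. Its log2 fold change of 0.67 ± 0.21 was the second highest of the family (adjusted p = 0.0711). Slc25a14 (-0.01 ± 0.13) and Slc25a30 (-0.06 ± 0.08) overlapped between groups.

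Of 6 further members, 1 fell and 5 did not pass. Slc25a35 (ENSMUSG00000018740; chromosome 11, 68968131 to 68974365, plus strand) had 6.00, 4.58 and 4.38 CPM in control 1, 2 and 4 and 3.10, 2.97 and 3.54 in KCl 1, 2 and 4. Control 1 stood above the other controls and no KCl library reached them. Slc25a35 fell by 0.64 ± 0.16 on the log2 scale (edgeR adjusted p = 0.0361), the largest fall of the family, and the call was lost without control 1 (0.0715), control 4 (0.0654), KCl 1 (0.0959), KCl 2 (0.101) or KCl 4 (0.0797), and by DESeq2 (0.0501). Of its 3677 exonic bases, 1151 are shared with Rangrf on the other strand, and the strand setting of the counting is not given in the sources used here. If counting did not use strand, reads of these 2 genes cannot be told apart there. Rangrf itself did not pass (log2 fold change -0.10 ± 0.21). Shorter overlaps of this kind involve Slc25a37 (381 and 92 bases, with 2 transcripts), Slc25a33 (281 bases) and Slc25a23 (168 bases).

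Slc25a47 had 28, 25 and 18 counts without KCl and 15, 14 and 15 with it, that is 1.33, 1.14 and 1.27 CPM against 0.788, 0.816 and 0.83. It was lower in each KCl library at -0.62 ± 0.17 on the log2 scale and did not pass (adjusted p = 0.0831, and 0.0427 by limma-voom). Slc25a43 had 3.00, 3.39 and 3.11 CPM without KCl and 4.83, 3.85 and 4.37 with it, a difference of 0.46 ± 0.13 at the edge of the threshold (adjusted p = 0.0521, and 0.0472 without KCl 2). Slc25a46, an outer membrane protein with a part in mitochondrial fission, had 64.6 to 65.0 CPM in control and 67.0 to 76.3 in KCl (0.13 ± 0.06, adjusted p = 0.207). Slc25a45 (-0.10 ± 0.05) and Slc25a53 (-0.27 ± 0.29) did not pass.

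The direction of change in the libraries numbered 4 was compared with that in the others. For 12 of 39 carriers (30.8%), the difference between KCl 4 and control 4 had the opposite sign to that between KCl 1 and 2 and control 1 and 2, where 41.9% of all tested genes did so. In 9 of the 12, KCl was lower in libraries 1 and 2 and higher in library 4: Slc25a3, Slc25a5, Slc25a12, Slc25a20, Slc25a22, Slc25a26, Slc25a29, Slc25a39 and Slc25a42. The other 3 went the other way (Slc25a14, Slc25a24 and Slc25a36). Of all 13326 tested genes, 2887 had the first layout and 2685 the second. For Slc25a5 the differences were -0.26 and 0.24, and for Slc25a12 -0.33 and 0.31. The abundant carriers Slc25a5, Slc25a3 and Slc25a24 are therefore among those whose group means hide differences of opposite sign, whereas Slc25a4 gave -0.36 in both. Since Slc25a4 was called from these same libraries, that likeness is no separate check.

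**Figure D4:**
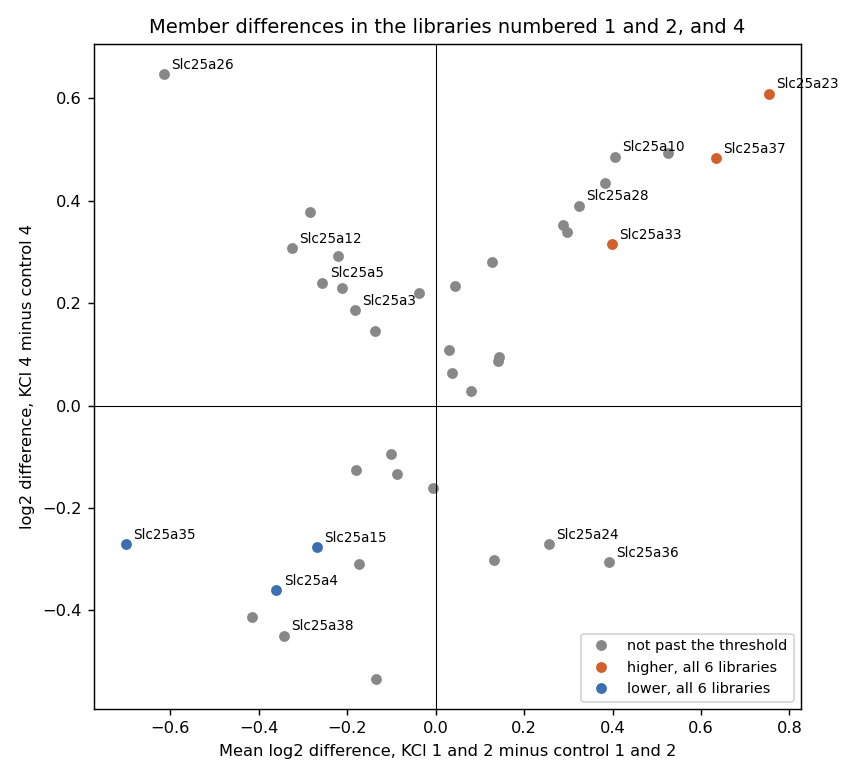
Each of the 39 SLC25 members by its mean log2 difference between KCl 1 and 2 and control 1 and 2 (horizontal axis) and its log2 difference between KCl 4 and control 4 (vertical axis). The 12 members in the upper left and lower right of the plot, 9 and 3 of them, had opposite signs, while Slc25a4 lies at -0.36 on both axes.

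Promoter sequences from RefSeq (GRCm38.p6, the assembly of mm10) are shown for 3 members past the threshold, cut to the bases outside the gene as GENCODE draws it. The window of Slc25a4 lies mostly inside that gene and is not shown. A window of 250 bases upstream of the start was found for 30 of the 39 members. They are printed 5′ to 3′ along the gene's strand, with capitals marking the letters TGACNNNGC (the core of the antioxidant response element) and GGGCGG (the GC box) on either strand. None of these matches overlapped another in the printed windows.
Slc25a23, chr17:57059864-57060113, minus strand: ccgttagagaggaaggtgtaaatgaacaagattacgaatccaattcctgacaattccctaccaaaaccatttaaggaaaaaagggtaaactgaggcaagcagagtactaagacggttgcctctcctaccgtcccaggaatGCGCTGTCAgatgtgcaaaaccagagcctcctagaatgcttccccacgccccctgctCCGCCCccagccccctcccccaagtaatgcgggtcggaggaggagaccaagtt
Slc25a33, chr4:149774278-149774517, minus strand: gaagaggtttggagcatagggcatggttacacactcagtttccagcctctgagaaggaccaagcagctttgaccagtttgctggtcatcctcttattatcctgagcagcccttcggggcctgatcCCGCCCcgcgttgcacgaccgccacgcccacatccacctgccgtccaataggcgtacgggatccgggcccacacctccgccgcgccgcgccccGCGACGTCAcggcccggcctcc
Slc25a15, chr8:22398622-22398871, minus strand: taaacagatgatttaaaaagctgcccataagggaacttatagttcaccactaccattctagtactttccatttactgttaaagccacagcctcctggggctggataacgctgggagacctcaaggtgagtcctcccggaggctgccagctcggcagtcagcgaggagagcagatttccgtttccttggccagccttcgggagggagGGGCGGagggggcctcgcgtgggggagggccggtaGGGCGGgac

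The printed windows of Slc25a23 and Slc25a33 each hold a match to TGACNNNGC. The other members with one were Slc25a3, Slc25a5, Slc25a14, Slc25a25 and Slc25a38, which did not pass. Across the 30 members with a window, 7 held this motif (10.2% of all 32851 windows did) and 22 held GGGCGG (32.7% of all). The E-box CACGTG was in 6 members (6.02% of all) and CCAAT in 16 (33.8%). TGATGNAA, the core bound by ATF4 and C/EBP partners, was in 0 members (3.45% of all), and the NRF1 motif in 0 (0.782%). Members with several annotated starts counted once if any window matched, and the 30 members had 39 windows. The shares of all are per window, so the counts of members and these shares are of unlike units. Matches are letters in a window and no evidence of binding.

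Genes that work beside the carriers were examined as lists. Of 3 tested family members under other symbols, 0 passed by edgeR (2 at an unadjusted p under 0.05). Ucp2, the uncoupling protein of immune cells, stood at 890 ± 3.88 CPM in control and 797 ± 14.4 in KCl (mean ± SD, n = 3), with an edgeR adjusted p of 0.0528 and a log2 fold change of -0.16 ± 0.05. Mtch1 (0.36 ± 0.12) and Mtch2 (0.09 ± 0.09), outer membrane proteins, did not pass. DESeq2 called 1 of the 3 higher and 1 lower, and limma-voom 1 lower.

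Of 26 genes for mitochondrial membrane transport outside the family, 7 rose, 2 fell and 17 did not pass, or 34.6% passing beside 22.9% of all tested genes. Vdac1, the main outer membrane porin, fell from 264 ± 4.38 to 196 ± 1.88 CPM (log2 fold change -0.43 ± 0.04, edgeR adjusted p = 0.00315). Slc8b1, the mitochondrial sodium-calcium exchanger, rose by 0.59 ± 0.07, Mpc2, a subunit of the pyruvate carrier, by 0.64 ± 0.07, and Tmem65, an inner membrane protein, by 0.50 ± 0.06. Mpc1, the other subunit of the pyruvate carrier, did not pass (0.14 ± 0.18). The sideroflexins Sfxn5 (0.80 ± 0.10), Sfxn2 (0.59 ± 0.09) and Sfxn3 (0.36 ± 0.07), named after their values were seen, also rose. The sideroflexins Sfxn1 (-0.12 ± 0.10) and Sfxn4 (-0.37 ± 0.25, with a mean of 11.8 counts) were lower and did not pass. Sfxn3 missed the threshold without control 4 (adjusted p = 0.0537).

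Of 15 genes of the import route that carrier proteins use, 2 fell (13.3% beside 22.9% of all tested genes), 13 did not pass and 0 rose by edgeR, DESeq2 or limma-voom (1 higher at an unadjusted p under 0.05 in each). Tomm70a, the TOM receptor for carrier proteins, fell by 0.23 ± 0.04 on the log2 scale (adjusted p = 0.0121), and missed the threshold without control 4 (0.0593) or KCl 4 (0.0645). Tomm7 fell by 0.24 ± 0.05 (adjusted p = 0.0201) but lost its call on leaving out control 2 (0.0543), control 4 (0.0905), KCl 1 (0.0585) or KCl 4 (0.0972). Timm10b (0.31 ± 0.09, and adjusted p = 0.0289 without control 2) and Tomm22 (-0.13 ± 0.05) did not pass. Transcripts encoded by mitochondrial DNA, measured in the same libraries, made up 3.89% to 4.80% of the control counts and 3.26% to 3.61% of the KCl counts; their part in these values was not tested.

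Of 39 enzymes on either side of the carriers, 10 rose and 7 fell, or 43.6% passing beside 22.9% of all tested genes, and 22 did not pass. The mitochondrial folate enzymes Mthfd2 (-0.41 ± 0.04) and Mthfd1l (-0.43 ± 0.05) and the protease subunit Afg3l2 (-0.39 ± 0.04) fell, while Slc25a32, which supplies mitochondrial folate, did not pass. Got1, the cytosolic aminotransferase of the malate-aspartate shuttle, rose by 0.48 ± 0.06 on the log2 scale, while its mitochondrial partner Got2 (-0.02 ± 0.06) did not pass. Me1, cytosolic malic enzyme, rose by 1.16 ± 0.14 and mitochondrial Me2 fell by 0.36 ± 0.04.

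The following enzymes were singled out after their values were seen, because each stands next to a carrier described above. Arg2, the mitochondrial arginase that makes ornithine, rose by 0.91 ± 0.14, from 24.1 ± 3.73 to 45.2 ± 5.36 CPM, whereas Slc25a15 fell. Gclc (0.40 ± 0.06) and Gclm (0.57 ± 0.11), of glutathione synthesis, rose, and the glutathione carriers did not pass. Gss, of the same synthesis, was lower in every KCl library than in any control library and did not pass (-0.17 ± 0.07, edgeR adjusted p = 0.147). Alas1, the first enzyme of haem synthesis, rose by 0.30 ± 0.07 (adjusted p = 0.0281), but not past the threshold without control 1 (0.0564), control 4 (0.0891), KCl 1 (0.062), KCl 2 (0.0767) or KCl 4 (0.0772). Without both libraries numbered 4, 0 genes of these lists passed by edgeR (the lowest adjusted p of those named was 0.0686, shared by Vdac1, Slc8b1, Mpc2, Tmem65 and Got1). At an unadjusted p under 0.05 in that fit, 7 other transport genes were higher and 4 lower, 0 import genes higher and 5 lower, and 10 enzymes higher and 11 lower. Of all tested genes, 3998 of 13325 reached this in either direction. The genes of these lists said above to have risen or fallen kept their direction. Their groups did not overlap with all 6 libraries, so this too was given beforehand.

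**Figure D5:**
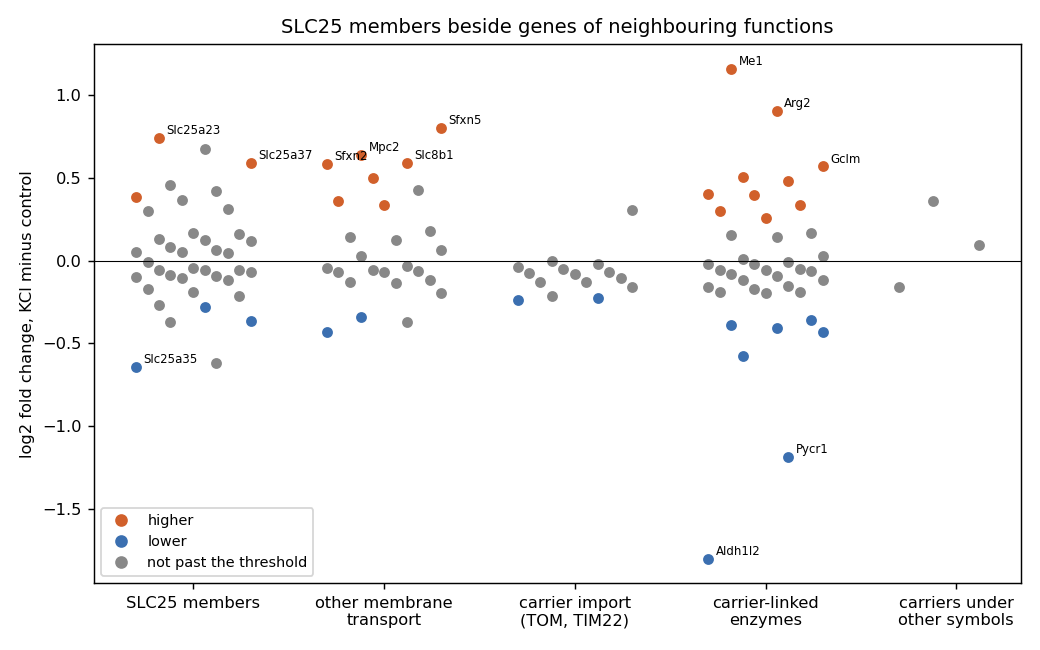
Log2 fold change (KCl minus control) of the 39 SLC25 members beside the 4 lists of genes with neighbouring functions; each point is 1 gene, spread sideways only for legibility, and most are named that passed with a change of at least about 0.57. Called genes make up 6 of 39 carriers, 9 of 26 other transport genes, 2 of 15 import genes, 17 of 39 linked enzymes and 0 of 3 family members under other symbols.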

How the data were processed

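RNA sequencing was done on 3 control and 3 KCl libraries, grouped by sample titles and treatment labels. The submitters' processing notes name HISAT2 2.0.4, StringTie 1.3.3b, edgeR and build mm10. How reads were counted, and whether by strand, is not given in the sources used here. The authors deposited whole-number read counts per gene and FPKM values. FPKM was used only to compare levels between genes, beside CPM over GENCODE exonic bases, which was added after seeing the data. The test was edgeR 4.0.16 in R 4.3.3: filterByExpr (minimum count 10, minimum total 15), TMM scaling, a robust quasi-likelihood fit on all 13326 genes left, 2-sided, Benjamini-Hochberg adjustment, threshold 0.05. Standard errors were the log2 fold change divided by the square root of F. CPM values are TMM-scaled, except in the check of the libraries numbered 4, which used library totals. Sums and differences between numbered libraries were computed from CPM, with 0.5 CPM added before log2. Coordinates and gene overlaps come from GENCODE M21 (mm10), promoters from RefSeq (GRCm38.p6).

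The fit was repeated with other scalings (RLE, upper quartile, library size), without the filter, for genes averaging 5 CPM or more, with replicate number as a block, and by DESeq2 1.42.0 and limma-voom (limma 3.58.1), with a term for the libraries numbered 4, and leaving out each library or both numbered 4. The edgeR, DESeq2 and limma-voom fits without block or term were tested on simulated data. The simulated libraries were drawn independently, unlike those numbered 4 here, so that test does not bear on whether p-values from all 6 are too small. The members, gene lists and tests were chosen with earlier results of these data known. The rule for naming gave values in every library for members past the threshold, the 6 with the highest mean FPKM, and the 2 highest and 2 lowest log2 fold changes among the rest, and up to 4 genes with the smallest p of each list outside the family. Other named genes and library values were chosen after their values were seen. Depth sets the precision: the 39 carriers held 33465 to 55187 counts per library. A few genes that enter the counts are not reported here by name.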

Additional observations from a re-analysis of the deposited data

How the results depend on the processing

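The 3 higher and 3 lower carriers became 0 and 0 without both libraries numbered 4. With DESeq2 and with a term for the libraries numbered 4, 2 were higher and 1 lower, and with the replicate block 3 were higher and 1 lower. With 1 library left out, 2 to 4 were higher and 1 to 3 lower. Slc25a4, Slc25a23 and Slc25a37 passed in every alternative but the one without both libraries numbered 4. Whether replicate numbers pair the samples could not be settled. Deviations from the group means correlated across genes at 0.023, -0.055 and -0.889 for numbers 1, 2 and 4. Between unlike numbers they correlated at -0.305 and -0.314 for 1 with 2, and at 0.339 to 0.427 where 1 library was numbered 4. The libraries numbered 4 enter the group means and so shift all of these values. DESeq2, the term and the block each lost Slc25a15, Slc25a33 and Slc25a35, and the block gained Slc25a10.

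Without both libraries numbered 4, the counts of other transport genes, import genes, linked enzymes and family members under other symbols were 0 in each direction. Import genes lower numbered 2, and 0 with the block or the term, and 0 to 2 with 1 library left out, where 0 to 1 were higher. Linked enzymes higher numbered 10, 6 with the block or the term, and 5 to 9 with 1 library left out. Of family members under other symbols, 1 was higher with DESeq2, 0 to 1 with 1 library left out, and 1 was lower with upper-quartile or library-size scaling, no filter, DESeq2 or limma-voom.

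Of 618 single values of the carriers, 566 kept direction and side of the threshold, 29 lost the call, 7 gained it and 16 changed sign, none past the threshold. Sign changes were Slc25a11 (0.00 with upper-quartile scaling), and Slc25a14 (0.143) and Slc25a42 (-0.041) without both libraries numbered 4. With 1 library left out, ranges that crossed 0 were -0.081 to 0.068 for Slc25a14, -0.096 to 0.044 for Slc25a20, -0.149 to 0.076 for Slc25a22, -0.053 to 0.172 for Slc25a24, -0.458 to 0.082 for Slc25a26, -0.21 to 0.091 for Slc25a29, -0.124 to 0.004 for Slc25a3, -0.027 to 0.148 for Slc25a32 and -0.002 to 0.132 for Slc25a42. The order of levels over exonic bases kept 5 of 39 ranks of the FPKM order. The causes were not tested, apart from the fewer libraries in some fits. Upper-quartile scaling called 1422 genes higher and 1735 lower over all genes, against 1655 and 1402. The count over all genes was 62 without both libraries numbered 4, 1678 with the block, 1573 with the term, 1439 without control 4 and 1505 without KCl 4, against 3057.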
